A study of Homo sapiens with 12 samples.

Results

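Transcript levels of 10 genes that stand near the insulin receptor and the FOXO transcription factors were measured in LN229, an established human glioblastoma cell line. The genes are FOXO1, FOXO3, FOXO4, IRS1, IRS2, PIK3R1, PIK3IP1, CITED2, BCL6 and TRIB1. They were found by gene symbol among the 22257 genes of the count tables, and each was read from 1 RefSeq transcript, the one that the authors had marked for the gene. Cells at 80% confluence were kept for 24 h in RPMI with 10% dialyzed serum, from which small molecules such as glucose have been removed. The 12 libraries comprised 4 at 10 mM glucose (10 mM glc), 4 at 1 mM glucose with 5 mM acetate (1 mM glc + Acetate, called the acetate libraries) and 4 at 1 mM glucose alone (1 mM glc). No label says that the 4 replicates of a group were separate cultures, so the p-values rest on a spread that may be technical. The comparisons ask how the levels depend on glucose supply and on acetate as a second carbon source when glucose is scarce.

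The insulin and IGF1 receptors phosphorylate the adaptor proteins IRS1 and IRS2, which then bind the regulatory subunits of class I phosphoinositide 3-kinase (PI3K), among them the product of PIK3R1. PI3K activates the kinase AKT, and AKT phosphorylates the FOXO factors, which 14-3-3 proteins then hold in the cytoplasm. When the pathway is quiet, FOXO factors enter the nucleus and switch on genes for cell cycle arrest, stress resistance and feedback on the pathway, IRS2 among them. AKT acts on FOXO proteins after translation, so transcript levels of the FOXO genes do not report their activity. In glioblastoma the pathway is often active, for instance where growth factor receptors are amplified.

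Promoter sequence is shown for 5 of the genes because each holds 1 match to a motif tied to FOXO factors or to E-box proteins. In RefSeq's windows from 250 bases before to 50 bases after a gene's start (build GRCh38.p14), 19 windows of 9 of the genes were searched on both strands, and no window of TRIB1 was used. The motifs were GTAAACA, a FOXO consensus found in 3.42% of 35116 such windows of all genes, TGTTTTG, the core of the insulin response element, found in 4.92%, and CACGTG, an E-box, found in 7.26%. The capitals below mark the match. IRS2 and CITED2, whose transcripts fell at 10 mM glucose, are shown over the 250 bases before the start, both on the minus strand, at chr13:109786584-109786833 for IRS2 and chr6:139374649-139374898 for CITED2.
IRS2: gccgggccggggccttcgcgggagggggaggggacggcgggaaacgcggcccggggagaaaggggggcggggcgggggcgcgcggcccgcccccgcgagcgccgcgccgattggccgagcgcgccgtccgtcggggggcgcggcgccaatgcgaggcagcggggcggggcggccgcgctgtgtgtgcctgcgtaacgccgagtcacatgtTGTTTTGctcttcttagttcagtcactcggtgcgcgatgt
CITED2: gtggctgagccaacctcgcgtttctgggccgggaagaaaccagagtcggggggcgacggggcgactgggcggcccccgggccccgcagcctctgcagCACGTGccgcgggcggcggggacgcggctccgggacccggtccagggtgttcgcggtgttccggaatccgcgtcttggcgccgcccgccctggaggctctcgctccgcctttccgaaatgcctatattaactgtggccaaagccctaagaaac
The IRS2 match to TGTTTTG begins 40 bases before the start, and the CITED2 E-box 153 bases before it. In the other 3 genes the match lies just after the start and is shown in a stretch of 30 bases, at chrX:71095862-71095891 (plus strand) for FOXO4, chr2:226799771-226799800 (minus strand) for IRS1 and chr22:31292455-31292484 (minus strand) for PIK3IP1.
FOXO4: ccccggcgagtgGTAAACAgagacgtcagg
IRS1: gcgcggaggctccgtCACGTGtttttctcc
PIK3IP1: ctaaagagaggcTGTTTACcagaacagcat
FOXO4 holds GTAAACA and PIK3IP1 its reverse complement TGTTTAC, while IRS1 holds the same E-box letters as CITED2. CITED2 and PIK3IP1 have several annotated starts, and in each the match lay in the window of 1 start alone, from which its place is given. The windows of FOXO1, FOXO3, PIK3R1 and BCL6 held none of the 3 motifs. A match describes these letters and is not evidence of binding.

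Library totals ran from 24.4 M to 27.2 M counts over the chosen transcripts (M, mega), and a level is in CPM, the counts per mega of the library's TMM-scaled total. A gene counts as called where its edgeR quasi-likelihood p, adjusted by Benjamini-Hochberg over the 14416 genes tested, is under 0.05. Each log2 fold change runs as the first group named minus the second and carries its standard error (SE). The mesenchymal and glial markers VIM, CD44 and NES were high in all 12 libraries (at least 3685, 754 and 399 CPM), whereas GFAP stayed at or below 1.47 CPM and NCAN at or below 0.115 CPM, with 0 in some libraries. Other glial markers moved with the medium: at 10 mM and 1 mM glucose SOX2 averaged 75.4 and 14.3 CPM, PDGFRA 42.1 and 5.48 CPM, S100B 186 and 86.6 CPM, NES 1053 and 452 CPM, and OLIG2 8.47 and 24.9 CPM. Of the markers of other cells, PTPRC, AIF1, PECAM1, CDH5, EPCAM and KRT5 stayed at or below 0.733 CPM, and SYT1 and CD68, which glioma cells may also express, averaged 26.6 and 20.4 CPM at 10 mM glucose, 108 and 65.0 CPM with acetate and 114 and 58.5 CPM at 1 mM glucose. The part of these shifts in the results was not tested. In a bulk extract, fewer cells that express a gene and less of its RNA per cell cannot be told apart. Over 14182 genes (not independent of each other), the deviation of a library from the mean of the 12 fell with transcript length in 1 mM glc replicate 3 (Spearman rho −0.47) and in acetate replicate 1 (−0.47). The other 10 libraries lay between −0.18 and 0.23. Against the mean of its own group, rho was −0.53 and −0.59 in this pair and between −0.28 and 0.49 in the others. Values without the pair are given for FOXO1, FOXO3, FOXO4 and IRS1, whose fold changes moved most among those called. Scaling by library totals instead moved the all-gene median log2 fold change to 0.14 for 10 mM glc against 1 mM glc, and 63.3% of calls were then higher, against 49.9% under TMM.

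At 10 mM glucose 8 of the 10 genes differed from 1 mM glucose, with 4 higher and 4 lower, and the widest changes were those of IRS2 (2.30-fold lower), PIK3R1 (2.28-fold higher) and CITED2 (2.25-fold lower). PIK3R1 and the 3 FOXO genes rose, and IRS2, CITED2, IRS1 and TRIB1 fell. All 10 genes passed the filter on low counts. Over all genes 67.5% were called, 33.7% higher and 33.8% lower, so a share of 8 in 10 is near that of the transcriptome. Their median log2 fold change was 0.09, beside 0.00 for all genes tested. The groups did not overlap for 7 of the 10 genes, beside 61.5% of all genes.

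With acetate at 1 mM glucose 3 of the 10 genes differed from 1 mM glucose alone, and all 3 were lower, namely IRS2, CITED2 and TRIB1. None was called higher by edgeR, by the DESeq2 Wald test or by limma-voom, and 0 were higher at an unadjusted edgeR p under 0.05. The groups did not overlap for these same 3 genes, beside 15.6% of all genes. Over all genes 13.7% were called, 6.65% higher and 7.09% lower. The median log2 fold change of the 10 genes was −0.08, beside 0.00 for all genes. That background moves with single libraries, since 1294 genes were called without 1 mM glc replicate 1, 1278 without 1 mM glc replicate 4, 1318 without acetate replicate 3 and 1196 without acetate replicate 4, against 1980 with all.

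At 10 mM glucose 7 of the 10 genes differed from the acetate libraries, with 4 higher and 3 lower. Over all genes 62.8% were called, 31.0% higher and 31.8% lower. The groups did not overlap for 8 of the 10 genes, beside 61.0% of all genes, and the median was 0.10 beside 0.00. This comparison shares libraries with each of the other 2, which both use the 1 mM glc libraries, so the calls are not independent across them.

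**Figure D1:**
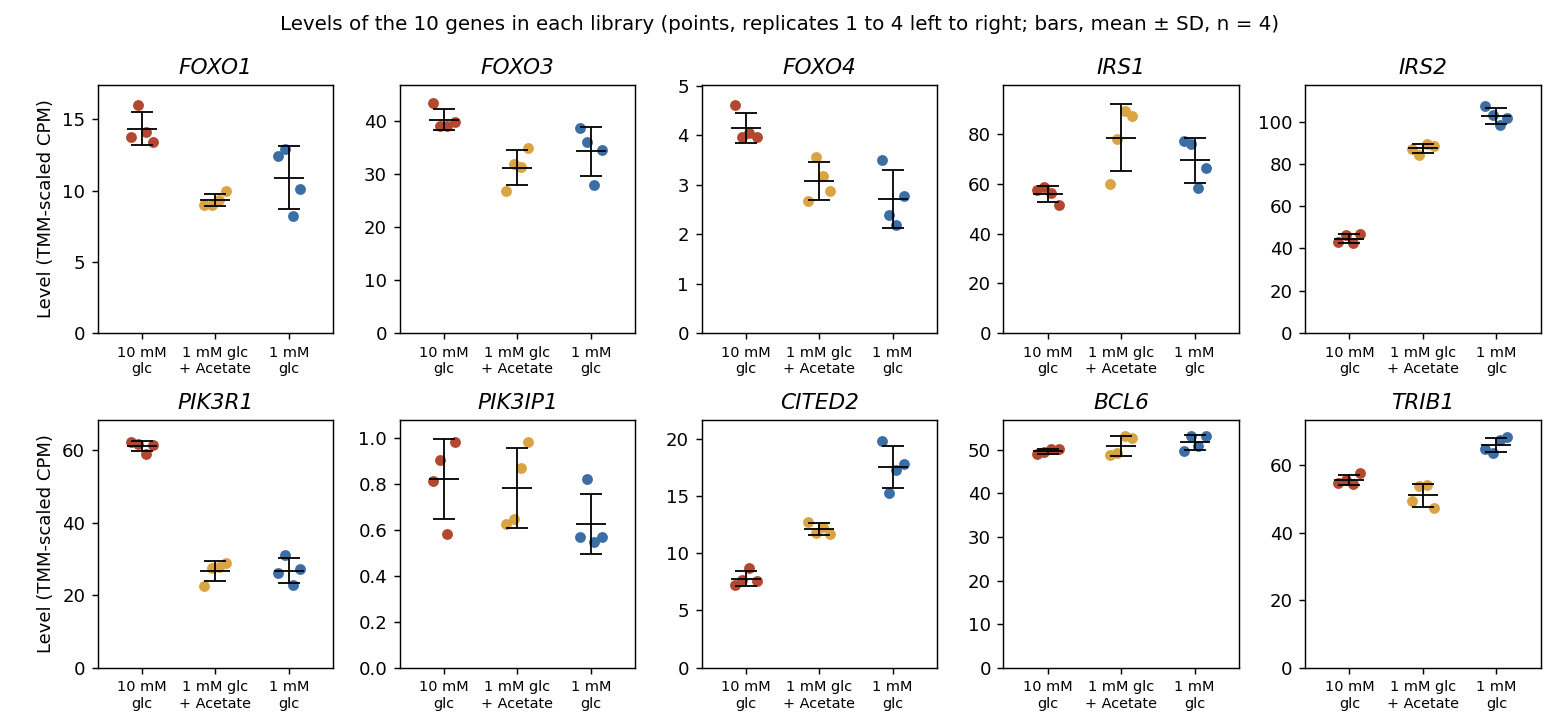
TMM-scaled CPM of each of the 10 genes in the 12 libraries, with a panel per gene; points are libraries, ordered by replicate within a group, and black bars the mean ± SD (n = 4). PIK3R1 stands between 59.0 and 62.2 CPM at 10 mM glc, above both other groups, while IRS2 and CITED2 are lowest at 10 mM glc and highest at 1 mM glc.

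IRS2, the receptor substrate that carries much of the insulin signal in liver and is induced by FOXO factors there, had the smallest adjusted p of the 10 genes in the glucose comparison. Its level was 43.0, 46.4, 42.7 and 46.8 CPM at 10 mM glucose, 87.3, 84.3, 89.4 and 88.7 CPM with acetate and 108, 103, 98.5 and 102 CPM at 1 mM glucose alone. The 3 groups did not overlap, with every 10 mM library below every acetate library and every acetate library below every 1 mM library. IRS2 averaged 44.7 ± 2.18 CPM at 10 mM glucose and 103 ± 3.78 CPM at 1 mM glucose (SD, n = 4 each), which is 2.30-fold lower at 10 mM (log2 fold change −1.20 ± 0.05 SE, edgeR adjusted p = 5.3e-11). With acetate it averaged 87.4 ± 2.26 CPM, a log2 fold change of −0.23 ± 0.05 SE against 1 mM glucose alone (edgeR adjusted p = 0.0071). At 10 mM glucose it was also lower than with acetate, by a log2 fold change of −0.97 ± 0.05 SE (edgeR adjusted p = 7.3e-10).

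IRS1, the other broadly expressed receptor substrate, was lower at 10 mM glucose than in both other groups, by less than IRS2 and with a call against 1 mM glucose that single libraries decided. Its level was 57.5, 58.9, 56.4 and 51.6 CPM at 10 mM glucose, 59.8, 78.1, 89.3 and 87.5 CPM with acetate and 77.1, 76.1, 58.3 and 66.3 CPM at 1 mM glucose. The lowest 1 mM library was replicate 3 and the lowest acetate library replicate 1, the pair whose deviations fell with transcript length, and 3 of the 4 libraries at 10 mM glucose lay below all 4 at 1 mM. IRS1 averaged 56.1 ± 3.17 CPM at 10 mM glucose and 69.5 ± 8.90 CPM at 1 mM glucose (SD, n = 4), a log2 fold change of −0.31 ± 0.12 SE (edgeR adjusted p = 0.029). That call ended with library totals (−0.17, edgeR adjusted p = 0.205) and without any 1 of 4 libraries. The adjusted p was 0.0867 without 1 mM glc replicate 1, 0.0709 without 1 mM glc replicate 2, 0.0517 without 10 mM glc replicate 3 and 0.0801 without 10 mM glc replicate 4. Without the pair of libraries that stood apart it was −0.38 (edgeR adjusted p = 9.94e-06), and with the trend over length and GC content removed −0.54 (edgeR adjusted p = 4.83e-08).

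With acetate IRS1 averaged 78.7 ± 13.5 CPM, the highest mean of the 3 groups. Its log2 fold change against 1 mM glucose alone was 0.18 ± 0.11 SE and did not pass the test (edgeR adjusted p = 0.33, 95% interval −0.04 to 0.40). Without acetate replicate 1 it was 0.29 (edgeR adjusted p = 0.0318), and without both libraries that stood apart 0.22 (edgeR adjusted p = 0.0181). At 10 mM glucose IRS1 was lower than with acetate in every library, by a log2 fold change of −0.49 ± 0.12 SE (edgeR adjusted p = 0.0019), and by −0.60 without the pair of libraries that stood apart (edgeR adjusted p = 1.87e-08).

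IRS2 was weighed against IRS1 in each library. The ratio of IRS2 to IRS1, each as CPM per kb of transcript, was 0.892, 0.939, 0.903 and 1.08 at 10 mM glucose, 1.74, 1.29, 1.19 and 1.21 with acetate and 1.66, 1.62, 2.01 and 1.83 at 1 mM glucose. IRS1 and IRS2 stood at about equal levels at 10 mM glucose (mean ratio 0.953 ± 0.0868). The size of the ratio depends on the transcript lengths used, whereas its comparison between groups does not. IRS2 stood above IRS1 with acetate (1.36 ± 0.258) and without it at 1 mM glucose (1.78 ± 0.180; SD, n = 4 each). The ratio was chosen after its values were seen. A two-sided exact permutation test gave p = 0.0286 for 10 mM glucose against 1 mM glucose and for 10 mM glucose against acetate. Adjusted over 6 such tests it was 0.0429. The value 0.0286 is the smallest that 4 against 4 libraries allow. Groups without overlap always give it, so the test adds nothing to the separation of the 10 mM libraries. The adjustment covers these 6 tests alone and not the choice of the ratio. For acetate against 1 mM glucose alone the exact p was 0.0857 (adjusted 0.103), with acetate replicate 1 inside the 1 mM range and the other 3 below it. Acetate replicate 1 (1.74) and 1 mM glc replicate 3 (2.01), each the highest of its group, were the pair that stood apart. The acetate mean over the 1 mM mean was 0.762, and 0.690 without acetate replicate 1 (exact p = 0.0571, the lowest possible when a library is left out). Without 1 mM glc replicate 3 it was 0.797 (exact p = 0.171).

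**Figure D2:**
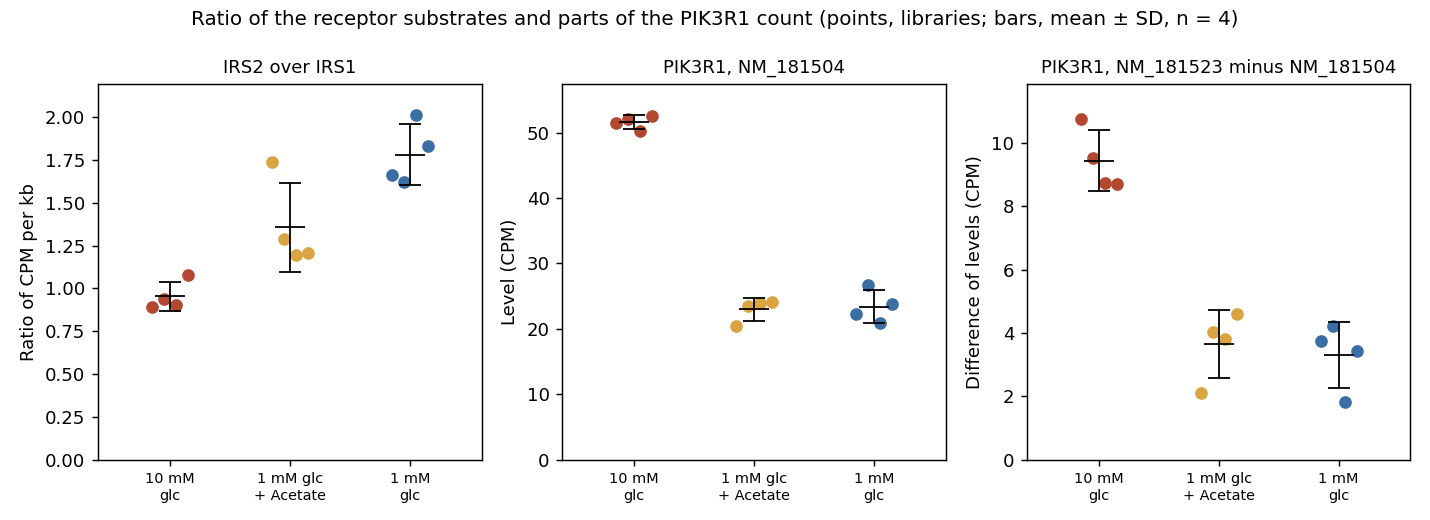
Left, ratio of IRS2 to IRS1 in CPM per kb; middle, CPM of PIK3R1 transcript NM_181504; right, CPM counted for NM_181523 beyond NM_181504. Points are libraries and bars the mean ± SD (n = 4); the ratio lies between 0.892 and 1.08 at 10 mM glc and between 1.62 and 2.01 at 1 mM glc, and both PIK3R1 measures are highest at 10 mM glc.

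PIK3R1 encodes p85-alpha and its shorter forms p55-alpha and p50-alpha, the regulatory subunits that bind the phosphorylated receptor substrates and hold the catalytic subunit. Its level was 62.2, 61.7, 59.0 and 61.3 CPM at 10 mM glucose, 22.5, 27.5, 27.8 and 28.8 CPM with acetate and 26.0, 31.0, 22.7 and 27.3 CPM at 1 mM glucose. The 10 mM libraries lay far above all 8 others, which overlapped. PIK3R1 averaged 61.0 ± 1.43 CPM at 10 mM glucose and 26.7 ± 3.42 CPM at 1 mM glucose (SD, n = 4), a 2.28-fold rise (log2 fold change 1.19 ± 0.09 SE, edgeR adjusted p = 2.2e-08). With acetate it averaged 26.6 ± 2.80 CPM, and the log2 fold change against 1 mM glucose alone was −0.01 ± 0.09 SE (edgeR adjusted p = 0.98), with a 95% interval from −0.18 to 0.17. The log2 fold change of 10 mM glucose against acetate was 1.20 ± 0.09 SE (edgeR adjusted p = 2.8e-08).

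PIK3R1 was counted on 3 transcripts, NM_181523, which encodes p85-alpha, and the shorter NM_181504 and NM_181524, whose counts were nearly equal to each other. NM_181504 averaged 51.6 ± 1.02 CPM at 10 mM glucose, 23.0 ± 1.75 CPM in the acetate libraries and 23.4 ± 2.53 CPM at 1 mM glucose (SD, n = 4). What NM_181523 held beyond NM_181504 was 10.8, 9.55, 8.75 and 8.70 CPM at 10 mM glucose, 2.11, 4.04, 3.82 and 4.61 CPM with acetate and 3.75, 4.23, 1.83 and 3.43 CPM at 1 mM glucose. Both quantities were thus higher at 10 mM glucose than in the other groups, with no overlap. The excess was 2.85-fold that at 1 mM glucose and 2.59-fold that with acetate (two-sided exact permutation p = 0.0286 for each, adjusted 0.0429 over the same 6 tests). The excess was chosen after its values were seen. Groups without overlap always give this p, the smallest that 4 against 4 libraries allow, so the test adds nothing to that separation. For acetate over 1 mM glucose alone the ratio of the excess was 1.10 (exact p = 0.571). The excess made up 15.5 ± 1.34% of the NM_181523 count at 10 mM glucose, 13.5 ± 2.89% in the acetate libraries and 12.2 ± 2.84% at 1 mM glucose. The transcripts share most of their sequence, so the excess is a difference of overlapping counts and not a measure of p85-alpha alone. The other RefSeq transcripts of FOXO3, FOXO4, PIK3IP1, CITED2 and BCL6 had the same calls as the chosen ones in a fit over 24528 transcripts, and they share reads too.

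PIK3IP1, a membrane protein that binds and inhibits the catalytic subunit of PI3K, was the lowest of the 10 genes, with 14 to 27 counts per library. Its level was 0.813, 0.907, 0.583 and 0.983 CPM at 10 mM glucose, 0.628, 0.649, 0.871 and 0.983 CPM with acetate and 0.570, 0.821, 0.546 and 0.571 CPM at 1 mM glucose. The 3 groups overlapped. The log2 fold change was 0.39 ± 0.23 SE for 10 mM glucose against 1 mM glucose (edgeR adjusted p = 0.15) and 0.32 ± 0.23 SE for acetate against 1 mM glucose alone (edgeR adjusted p = 0.40). Between 10 mM glucose and acetate it was 0.07 ± 0.22 SE (edgeR adjusted p = 0.79). The 95% interval of the glucose comparison, from −0.06 to 0.84, leaves room for a change as large as that of FOXO4, and no difference was detectable at this depth.

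The FOXO genes were higher at 10 mM glucose than in both other groups. FOXO1, the family member best known for control of glucose production in liver, had 13.7, 16.0, 14.1 and 13.4 CPM at 10 mM glucose, 9.02, 9.0, 9.35 and 9.94 CPM with acetate and 12.4, 12.9, 8.19 and 10.1 CPM at 1 mM glucose. All 10 mM libraries lay above all others, while the acetate libraries lay within the spread of the 1 mM libraries. FOXO1 averaged 14.3 ± 1.17 CPM at 10 mM glucose and 10.9 ± 2.19 CPM at 1 mM glucose (SD, n = 4), a log2 fold change of 0.40 ± 0.12 SE (edgeR adjusted p = 0.0076), and 0.28 without both libraries that stood apart (edgeR adjusted p = 0.00659). Against the acetate libraries, which averaged 9.33 ± 0.440 CPM, it was 0.62 ± 0.12 SE (edgeR adjusted p = 0.00032). The log2 fold change of acetate against 1 mM glucose alone was −0.22 ± 0.12 SE (edgeR adjusted p = 0.24). Without 1 mM glc replicate 3 it was −0.34 (edgeR adjusted p = 0.0234), and without both libraries that stood apart −0.33 (edgeR adjusted p = 0.018).

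FOXO4, an X-linked family member, had 4.61, 3.96, 4.05 and 3.97 CPM at 10 mM glucose, 2.66, 3.55, 3.18 and 2.87 CPM with acetate and 3.50, 2.38, 2.18 and 2.77 CPM at 1 mM glucose. Again the 10 mM libraries stood above all others and the remaining groups overlapped. Its mean of 4.14 ± 0.311 CPM at 10 mM glucose, against 2.71 ± 0.582 CPM at 1 mM glucose (SD, n = 4), gave a log2 fold change of 0.61 ± 0.14 SE (edgeR adjusted p = 0.0013). Against the acetate libraries, at 3.07 ± 0.386 CPM, it was 0.43 ± 0.14 SE (edgeR adjusted p = 0.012). Without the pair of libraries that stood apart these were 0.52 and 0.37 (edgeR adjusted p = 0.00156 and 0.0146). The log2 fold change of acetate against 1 mM glucose alone was 0.18 ± 0.15 SE (edgeR adjusted p = 0.46).

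FOXO3, linked to quiescence and stress resistance in stem cells, was the highest of the FOXO genes. It had 43.2, 38.9, 38.9 and 39.7 CPM at 10 mM glucose, 26.7, 31.8, 31.3 and 34.7 CPM with acetate and 38.6, 35.9, 27.8 and 34.4 CPM at 1 mM glucose. The lowest 10 mM library lay just above the highest 1 mM library. FOXO3 averaged 40.2 ± 2.06 CPM at 10 mM glucose and 34.2 ± 4.58 CPM at 1 mM glucose (SD, n = 4), a log2 fold change of 0.23 ± 0.10 SE (edgeR adjusted p = 0.042). The call ended when the trend over length and GC content was removed (0.06, edgeR adjusted p = 0.317). It also ended without any 1 of 8 libraries. The edgeR adjusted p was 0.114 without 1 mM glc replicate 3 (log2 fold change 0.15), 0.0735 without 1 mM glc replicate 4, 0.0538 without acetate replicate 2 and 0.0528 without acetate replicate 3. Without 10 mM glc replicates 1, 2, 3 and 4 in turn it was 0.116, 0.0568, 0.0556 and 0.0667. Without both libraries that stood apart the log2 fold change was 0.14 (edgeR adjusted p = 0.0313).

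Against the acetate libraries, which averaged 31.1 ± 3.33 CPM, FOXO3 was higher at 10 mM glucose by a log2 fold change of 0.37 ± 0.10 SE (edgeR adjusted p = 0.0036). That value was 0.22 with the trend over length and GC content removed (edgeR adjusted p = 0.00127) and 0.30 without the pair of libraries that stood apart (edgeR adjusted p = 0.000119). For acetate against 1 mM glucose alone the log2 fold change was −0.14 ± 0.10 SE (edgeR adjusted p = 0.39). FOXO3B, a near-identical copy of FOXO3, had counts at 46.7 ± 0.921% of those of FOXO3 at 10 mM glucose, 54.9 ± 2.43% in the acetate libraries and 51.1 ± 3.20% at 1 mM glucose (SD, n = 4). Reads of the pair may have been counted for either, so the FOXO3 level is uncertain. FOXO3B itself did not pass the test in any comparison, with log2 fold changes of 0.10 for 10 mM glucose against 1 mM glucose, −0.03 for acetate against 1 mM glucose and 0.13 for 10 mM glucose against acetate (edgeR adjusted p = 0.49, 0.89 and 0.35).

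**Figure D3:**
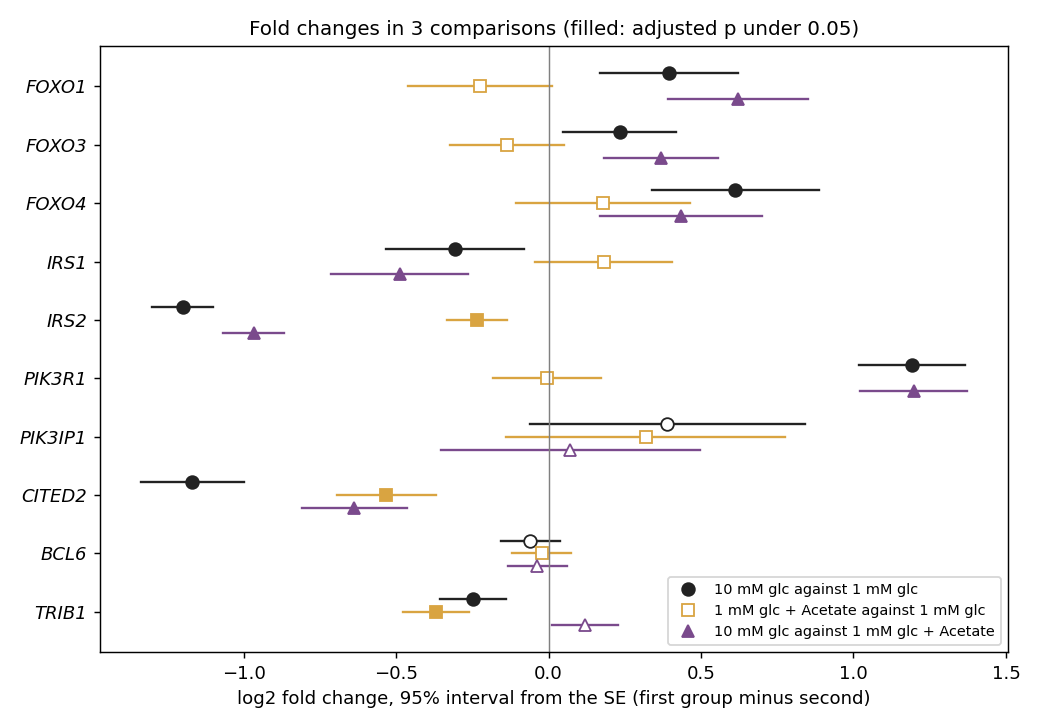
Log2 fold change of the 10 genes in the 3 comparisons, first group minus second, with bars for the 95% interval from the SE; filled symbols have an edgeR adjusted p under 0.05. PIK3R1 lies near 1.2 in both comparisons of 10 mM glc and at −0.01 for acetate against 1 mM glc, while CITED2 and IRS2 lie below 0 in all 3.

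CITED2, BCL6 and TRIB1 encode regulators that have been tied to FOXO factors. CITED2, which competes with HIF1A for the coactivators CREBBP and EP300 and is known as a FOXO3 target, had 7.20, 7.62, 8.75 and 7.57 CPM at 10 mM glucose, 12.8, 11.8, 12.3 and 11.7 CPM with acetate and 19.8, 15.3, 17.2 and 17.7 CPM at 1 mM glucose. The 3 groups did not overlap and fell in the same order as for IRS2. CITED2 averaged 7.79 ± 0.670 CPM at 10 mM glucose and 17.5 ± 1.85 CPM at 1 mM glucose (SD, n = 4), 2.25-fold lower at 10 mM (log2 fold change −1.17 ± 0.09 SE, edgeR adjusted p = 1.8e-08). With acetate it averaged 12.1 ± 0.499 CPM, a log2 fold change of −0.53 ± 0.08 SE against 1 mM glucose alone (edgeR adjusted p = 8e-04). That was the largest acetate change among the 10 genes. CITED2 was also lower at 10 mM glucose than with acetate (−0.64 ± 0.09 SE, edgeR adjusted p = 1.7e-05).

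TRIB1, a pseudokinase that brings the ubiquitin ligase COP1 to C/EBP factors, was lower at 10 mM glucose and with acetate than at 1 mM glucose alone. Its level was 54.7, 55.5, 54.2 and 57.5 CPM at 10 mM glucose, 49.3, 53.6, 54.1 and 47.2 CPM with acetate and 64.7, 63.4, 67.3 and 68.2 CPM at 1 mM glucose. Every 1 mM library lay above all 8 others. TRIB1 averaged 55.5 ± 1.42 CPM at 10 mM glucose and 65.9 ± 2.20 CPM at 1 mM glucose (SD, n = 4), a log2 fold change of −0.25 ± 0.05 SE (edgeR adjusted p = 0.001) that no longer passed with library totals (−0.11, edgeR adjusted p = 0.0942). With acetate it averaged 51.1 ± 3.37 CPM, a log2 fold change of −0.37 ± 0.05 SE (edgeR adjusted p = 0.00063). At 10 mM glucose TRIB1 lay above every acetate library, but the difference did not pass the test (0.12 ± 0.05 SE, edgeR adjusted p = 0.07). Without acetate replicate 3 that difference was 0.15 (edgeR adjusted p = 0.0427), and with library totals 0.22 (edgeR adjusted p = 0.00227).

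BCL6, a zinc finger repressor that FOXO factors induce in blood cells, did not pass the test in any of the 3 comparisons. Its level was 49.0, 49.4, 50.2 and 50.1 CPM at 10 mM glucose, 48.7, 49.2, 53.1 and 52.7 CPM with acetate and 49.8, 53.2, 50.9 and 53.2 CPM at 1 mM glucose. The groups overlapped. The log2 fold change was −0.06 ± 0.05 SE for 10 mM glucose against 1 mM glucose (edgeR adjusted p = 0.30), with a 95% interval from −0.16 to 0.04, and −0.02 ± 0.05 SE for acetate against 1 mM glucose (edgeR adjusted p = 0.80), with an interval from −0.12 to 0.07. For 10 mM glucose against acetate it was −0.04 ± 0.05 SE (edgeR adjusted p = 0.54). With library totals the first was 0.08 (edgeR adjusted p = 0.155).

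Scaled by transcript length, the order of the genes' levels changed with the medium. The order within a group depends on the lengths used, and the SDs show the spread between libraries alone. BCL6 stood highest in each group, with 18.3 ± 0.205 CPM per kb at 10 mM glucose, 18.8 ± 0.842 in the acetate libraries and 19.1 ± 0.626 at 1 mM glucose (SD, n = 4), and PIK3IP1 lowest, with 0.346 ± 0.0730, 0.330 ± 0.0728 and 0.264 ± 0.0548 CPM per kb in the same groups. At 10 mM glucose TRIB1 followed (15.3 ± 0.391), then PIK3R1 (8.71 ± 0.204), then IRS1 (5.78 ± 0.326), FOXO3 (5.50 ± 0.282) and IRS2 (5.49 ± 0.268), which did not differ beyond the sum of their SDs. CITED2 (3.31 ± 0.285), FOXO1 (2.50 ± 0.205) and FOXO4 (1.26 ± 0.0942) came next, all in CPM per kb.

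With acetate IRS2, at 10.7 ± 0.278 CPM per kb, came after TRIB1 (14.1 ± 0.927), and IRS1 next at 8.11 ± 1.39. CITED2 (5.15 ± 0.212) stood above FOXO3 (4.26 ± 0.456) and PIK3R1 (3.80 ± 0.400), of which the last pair did not differ beyond the sum of their SDs, and FOXO1 (1.63 ± 0.0766) and FOXO4 (0.929 ± 0.117) followed. At 1 mM glucose alone TRIB1 (18.1 ± 0.604) did not differ from BCL6 beyond the sum of the SDs, and IRS2 came next at 12.6 ± 0.464 CPM per kb. By the same measure CITED2 (7.44 ± 0.788) did not differ from IRS1 (7.16 ± 0.917), nor FOXO3 (4.68 ± 0.626) from PIK3R1 (3.81 ± 0.488), ahead of FOXO1 (1.90 ± 0.382) and FOXO4 (0.821 ± 0.176). By mean level PIK3R1 thus stood above IRS1, IRS2, CITED2 and FOXO3 at 10 mM glucose and below all 4 of them in both other groups.

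**Figure D4:**
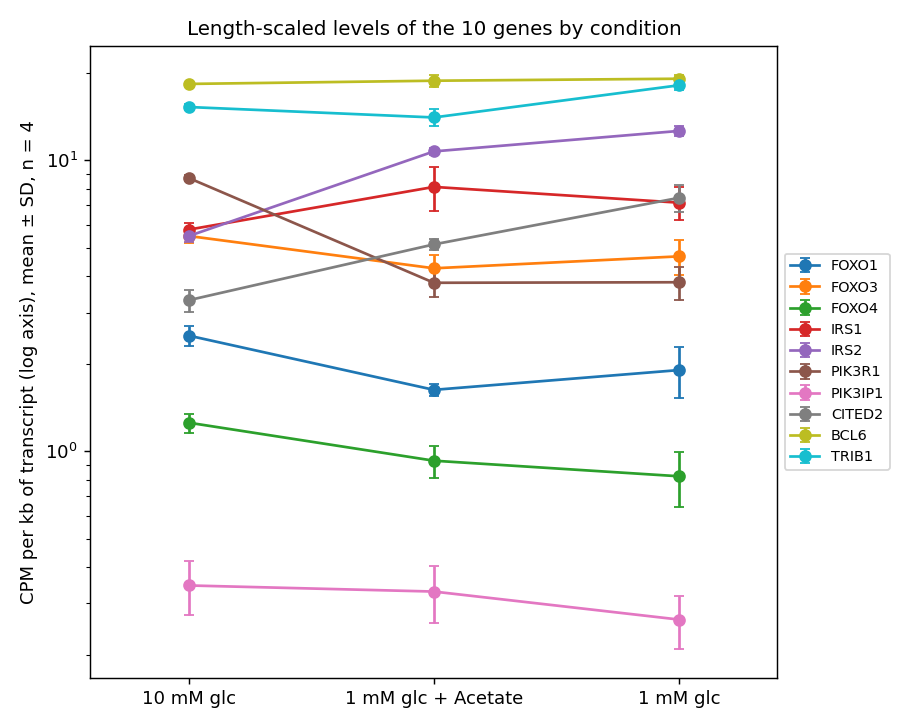
Mean level of the 10 genes in CPM per kb of transcript (log axis, bars of 1 SD, n = 4) at 10 mM glc, 1 mM glc + Acetate and 1 mM glc; lines join the means of a gene. PIK3R1 has 8.71 CPM per kb at 10 mM glc and 3.80 and 3.81 in the other groups, and its line crosses those of IRS1, IRS2, CITED2 and FOXO3.

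Genes that work beside these 10 in the pathway also moved in both directions. Of the 16 tested receptors and adaptors, 6 were higher and 4 lower at 10 mM glucose than at 1 mM glucose, with a median log2 fold change of 0.15 beside 0.00 for all genes. For each list the shares over all genes are 33.7% higher and 33.8% lower at 10 mM glucose, and 6.65% higher and 7.09% lower with acetate. GAB1, a docking protein related in role to the IRS proteins, averaged 19.3 ± 1.59 CPM at 10 mM glucose and 8.91 ± 1.32 CPM at 1 mM glucose (SD, n = 4; log2 fold change 1.12 ± 0.10 SE, edgeR adjusted p = 1.1e-07). GAB2, of the same family, went the other way, with 98.3 ± 5.89 CPM at 10 mM glucose and 138 ± 14.5 CPM at 1 mM glucose (−0.49 ± 0.11 SE, edgeR adjusted p = 0.00097). SH2B3, an adaptor that restrains receptor and cytokine signals, rose by 0.72 ± 0.06 SE, while SHC1, which links receptors to RAS, fell by 0.72 ± 0.04 SE and GRB10, which inhibits the insulin and IGF1 receptors, fell by 0.58 ± 0.05 SE, all on the log2 scale. With acetate SH2B3 was higher (0.21 ± 0.06 SE) and SHC1 (−0.25 ± 0.04 SE) and GRB10 (−0.19 ± 0.05 SE) were lower than at 1 mM glucose alone, and the other 13 genes did not pass the test (median 0.04). IRS4, another receptor substrate, was too low to be tested, with at most 0.0408 CPM.

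Of the 6 tested PI3K subunits other than PIK3R1, the regulatory subunits PIK3R2 and PIK3R3 rose at 10 mM glucose. PIK3R3, which encodes p55-gamma, averaged 30.2 ± 0.634 CPM at 10 mM glucose and 7.80 ± 1.31 CPM at 1 mM glucose (SD, n = 4), a log2 fold change of 1.95 ± 0.11 SE (edgeR adjusted p = 1.3e-09). PIK3R2, which encodes p85-beta, averaged 60.3 ± 2.06 CPM at 10 mM glucose and 43.6 ± 3.06 CPM at 1 mM glucose (0.47 ± 0.06 SE, edgeR adjusted p = 5.3e-06). The catalytic subunit PIK3CD was lower (−0.55 ± 0.08 SE), the other 3 did not pass the test, and the median was −0.03. With acetate 0 of the 6 were called by edgeR, the DESeq2 Wald test or limma-voom (median 0.07), and 1 was lower at an unadjusted edgeR p under 0.05.

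Of the 11 tested genes for kinases downstream of PI3K or for subunits of their complexes, 5 rose and 3 fell at 10 mM glucose (median −0.03). RICTOR, which was lower, and MAPKAP1, which did not pass the test, encode subunits that are not kinases themselves. AKT1, which phosphorylates the FOXO factors, rose by a log2 fold change of 0.47 ± 0.06 SE and GSK3B, a kinase that AKT inhibits, by 0.42 ± 0.07 SE. The AKT-related kinases SGK3 and SGK1, which can also phosphorylate FOXO3, were lower, by −1.10 ± 0.08 SE and −0.34 ± 0.06 SE. SGK1 was the single member of this list called with acetate (−0.41 ± 0.06 SE, edgeR adjusted p = 7e-04; list median 0.06).

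Of the 13 tested phosphatases and other brakes on the pathway, 5 rose and 5 fell at 10 mM glucose (median 0.03). The widest changes were in the tribbles genes, pseudokinases of the TRIB1 family. TRIB3, which is induced by ATF4 and binds AKT, averaged 35.6 ± 1.79 CPM at 10 mM glucose and 738 ± 76.0 CPM at 1 mM glucose (SD, n = 4; log2 fold change −4.38 ± 0.08 SE, edgeR adjusted p = 1.9e-14). TRIB2, reported to restrain FOXO3 in melanoma, averaged 337 ± 8.49 CPM at 10 mM glucose and 100 ± 5.25 CPM at 1 mM glucose (1.75 ± 0.05 SE, edgeR adjusted p = 2e-12). All 3 tribbles genes were thus called, TRIB2 higher and TRIB1 and TRIB3 lower. PHLPP1, a phosphatase that acts on AKT, rose by 1.02 ± 0.09 SE, and PTPN2, a tyrosine phosphatase of receptors, was lower by −0.82 ± 0.07 SE. With acetate TRIB3 (−0.43 ± 0.07 SE) and PPP2R5B, a regulatory subunit of protein phosphatase 2A (−0.29 ± 0.06 SE), were lower and the other 11 did not pass (median −0.04).

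Of the 22 tested partners and modifiers of FOXO proteins, 7 rose and 8 fell at 10 mM glucose (median 0.05). SKP2, a ubiquitin ligase subunit that targets FOXO1, averaged 44.3 ± 0.976 CPM at 10 mM glucose and 14.5 ± 2.24 CPM at 1 mM glucose (SD, n = 4; log2 fold change 1.61 ± 0.10 SE, edgeR adjusted p = 4.4e-09). CTNNB1, a FOXO cofactor, rose by 0.57 ± 0.05 SE, the acetyltransferase KAT2B by 0.63 ± 0.06 SE and the 14-3-3 gene YWHAQ by 0.37 ± 0.06 SE. The 14-3-3 genes did not move one way. YWHAH rose too (0.38 ± 0.06 SE), whereas YWHAZ, the highest of them at 1113 ± 30.9 CPM at 10 mM glucose, was lower (−0.24 ± 0.05 SE). SFN, at 0.260 ± 0.120 CPM there, was lower, and YWHAB, YWHAE and YWHAG did not pass the test. Among the 8 genes that fell were also SIRT1 (−0.50 ± 0.08 SE), STK4 (−0.48 ± 0.11 SE) and PRMT1 (−0.46 ± 0.09 SE). With acetate KAT2B (0.39 ± 0.06 SE) and SKP2 (0.44 ± 0.11 SE) were higher and the other 20 did not pass (median −0.03). None of the list was called lower by edgeR or limma-voom, but 1 was by the DESeq2 Wald test. At an unadjusted edgeR p under 0.05, 3 were lower. FOXO6 was not analysed here.

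Of the 23 tested genes that textbooks name as FOXO targets, 10 rose and 9 fell at 10 mM glucose, with a median of 0.15, so the list did not move one way. TXNIP, an inhibitor of glucose uptake that other sugar-sensing factors also control, rose most, and averaged 121 ± 4.54 CPM at 10 mM glucose and 6.63 ± 0.652 CPM at 1 mM glucose (SD, n = 4; log2 fold change 4.19 ± 0.08 SE, edgeR adjusted p = 9.4e-15). S1PR1, a lymphocyte homing receptor, was at 0.425 ± 0.127 CPM at 10 mM glucose and 10.2 ± 0.868 CPM at 1 mM glucose (−4.56 ± 0.15 SE, edgeR adjusted p = 2.4e-12). GADD45A, a stress-induced growth arrest gene, was lower (−2.42 ± 0.08 SE), as was MXI1, which opposes MYC (−0.94 ± 0.05 SE). The genes for liver gluconeogenesis PCK1 and G6PC were too low to be tested, with at most 0.116 and 0.0379 CPM.

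With acetate 2 of the same 23 genes rose and 8 fell against 1 mM glucose alone (median −0.12, beside 0.00 for all genes), where 6.65% of all genes were higher and 7.09% lower. The count of higher genes was 0 or 1 without any single library other than acetate replicate 1 and 10 mM glc replicate 1, and the count of lower genes lay between 6 and 9. CDKN1A, the cell cycle inhibitor p21, averaged 151 ± 5.95 CPM with acetate and 213 ± 14.7 CPM at 1 mM glucose alone (SD, n = 4; log2 fold change −0.50 ± 0.06 SE, edgeR adjusted p = 0.00015). S1PR1 (−0.67 ± 0.09 SE), BCL2L11, which encodes the pro-apoptotic BIM (−0.46 ± 0.10 SE), and CCNG2, a cyclin of arrested cells (−0.27 ± 0.06 SE), were lower too. BCL2L11 moved the other way at 10 mM glucose, where it averaged 26.0 ± 0.892 CPM against 17.4 ± 2.31 CPM at 1 mM glucose (0.58 ± 0.09 SE, edgeR adjusted p = 5.4e-05).

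**Figure D5:**
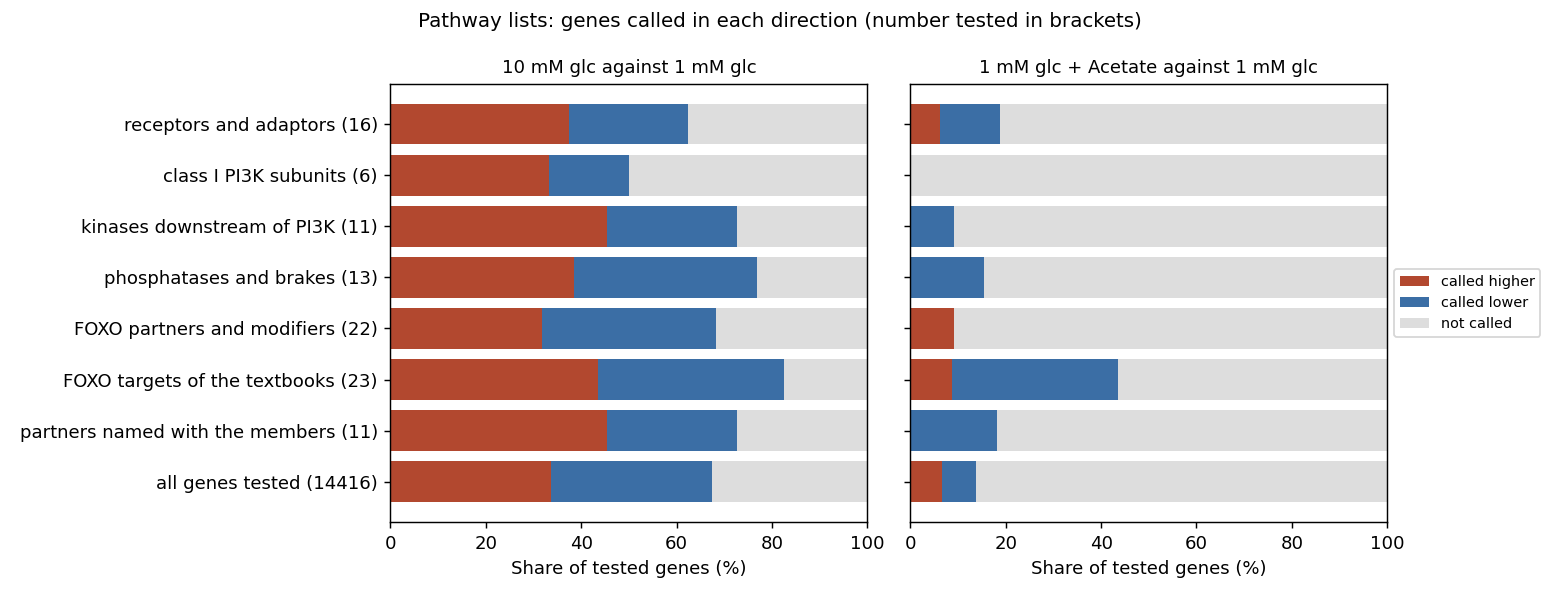
Share of the tested genes of 7 pathway lists, and of all 14416 genes, called higher or lower at 10 mM glc against 1 mM glc (left) and at 1 mM glc + Acetate against 1 mM glc (right); each list's number of tested genes is in brackets. For FOXO targets 10 of 23 are higher and 9 lower at 10 mM glc, and 2 are higher and 8 lower with acetate.

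Of the 11 tested partners of CITED2, BCL6 and TRIB1, 5 rose and 3 fell at 10 mM glucose (median 0.13). HIF1A, the hypoxia factor whose access to coactivators CITED2 limits, averaged 592 ± 19.9 CPM at 10 mM glucose and 955 ± 89.2 CPM at 1 mM glucose (SD, n = 4; log2 fold change −0.69 ± 0.07 SE, edgeR adjusted p = 3.1e-07). TFAP2C, an AP-2 factor that CITED2 coactivates, was higher (0.79 ± 0.05 SE), as was BCOR, a corepressor that BCL6 recruits (1.58 ± 0.12 SE). CEBPB, of the C/EBP family that TRIB1 acts on, averaged 49.3 ± 0.392 CPM at 10 mM glucose and 142 ± 19.4 CPM at 1 mM glucose (−1.53 ± 0.10 SE, edgeR adjusted p = 3.3e-09). With acetate CEBPB (−0.34 ± 0.09 SE) and MAP2K1, a kinase that TRIB1 binds (−0.19 ± 0.05 SE), were lower and the other 9 did not pass (median 0.08). RFWD2, the gene of the ligase COP1 itself, was at 48.9 ± 3.27 CPM at 10 mM glucose, 46.8 ± 2.80 CPM with acetate and 48.5 ± 2.58 CPM at 1 mM glucose, and it did not pass the test in either comparison with 1 mM glucose (edgeR adjusted p = 0.87 and 0.64).

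Genes whose log2 CPM ran most alike with that of IRS2, CITED2, IRS1, FOXO1, FOXO3 or PIK3IP1 over the 12 libraries were sought among those averaging at least 5 CPM. The points of these correlations share the libraries, their depth and 3 treatments, so the values describe likeness of pattern alone. For IRS2 they were GMPPB and ICA1 (Pearson r = 0.997 for each, n = 12), and for CITED2 NR4A1 (0.994) and TPD52L2 (0.990). GMPPB averaged 25.9 CPM at 10 mM glucose, 55.9 in the acetate libraries and 65.4 at 1 mM glucose, the same order as IRS2. For IRS1 they were FOXK1 (0.974) and PTPRF (0.972), and for FOXO1 C21orf91 (0.971) and KCTD12 (0.954). For FOXO3 they were TSHZ3 (0.961) and UBE4B (0.959), and for PIK3IP1 ALG10 (0.895) and PVRL3 (0.880). The PIK3IP1 pattern rests on 14 to 27 counts per library. Each named gene is among the highest of all genes searched, and such a search raises r by itself.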

How the data were processed

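The authors deposited raw counts per RefSeq transcript for each library, whole numbers with no normalization; hg19 is the build per the submitters' processing notes, and the aligner, counter and strand setting were not given in the sources used here. RNA was extracted with Trizol and libraries followed standard Illumina protocols, per the labels' protocols. Transcripts of a gene can share reads, so they were not added up: 1 stood for each of 22257 genes, the one the authors marked (20895 genes) or else that with the highest total. Counts were filtered by filterByExpr and scaled by TMM, and the quasi-likelihood F test of edgeR 4.0.16 (R 4.3.3) was run on all 12 libraries with 1 mean per group. Benjamini-Hochberg adjustment covered 14416 genes. SEs come from the F statistic. The 95% intervals multiply the SE by the normal quantile, without regard to the limited degrees of freedom, so they are somewhat too narrow. The common biological coefficient of variation was 8.51%. The procedure was also run on simulated counts with 1 spread for all genes and no trend over transcript length. That run could not show how such a trend affects the calls. Transcript lengths and GC content came from GENCODE 29, matched by accession for 20991 genes and by symbol for 725; it is on another build, so no coordinate was taken from it, and RefSeq promoters (GRCh38.p14) were matched by symbol.

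Members and gene lists were chosen with earlier results of these data known. All members were named, with up to 4 called genes of each list per comparison (lowest adjusted p, mean of at least 5 CPM) and the 2 genes most like each of 6 members. Named outside this rule were GAB2, RICTOR, MAPKAP1, SIRT1, STK4, PRMT1, SFN, YWHAB, YWHAE, YWHAG, YWHAH and YWHAZ. GMPPB's means, the list genes too low to be tested, RFWD2 and BCL2L11 at 10 mM glucose were chosen after their values were seen, as were the ratio of receptor substrates and the PIK3R1 transcript difference. Alternatives were DESeq2 size factors, library totals, no filter, a mean of at least 5 CPM, a 1.5-fold minimum, 8 libraries per comparison, the replicate number as a block, removal of each library's length and GC trend (spline of 5 degrees of freedom; also together with the block), other transcript choices, leaving out libraries, DESeq2 1.42.0 and limma-voom (limma 3.58.1).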

Additional observations from a re-analysis of the deposited data

Results flagged for a closer look

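In 2 of 30 groups checked, 1 library stood apart from the other 3 of its group by Dixon's criterion, which chance alone meets in a small share of groups. FOXO4 was at 4.61 CPM in 10 mM glc replicate 1, against 3.96 to 4.05 CPM in the other 3 libraries at 10 mM glucose. PIK3IP1 was at 0.821 CPM in 1 mM glc replicate 2, against 0.546 to 0.571 CPM in the rest of the 1 mM glc group. The PIK3IP1 values rest on 14 to 27 counts per library.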

How the results depend on the processing

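Of 774 values of the 30 member results under the alternatives, 718 kept their direction and side of the threshold, and 8 results did so under all alternatives run. The sign changed in 14 values of 5 results, none of them called: BCL6 in all 3 comparisons, PIK3R1 with acetate against 1 mM glc and PIK3IP1 at 10 mM glc against acetate. The cause of the other changes was not tested. A 1.5-fold minimum left 2865 genes called for 10 mM glc against 1 mM glc, 26 for acetate against 1 mM glc and 2104 for 10 mM glc against acetate. It ended the calls of FOXO1 (0.40 against 1 mM glc, 0.62 against acetate), FOXO3 (0.23, 0.37), FOXO4 (0.61, 0.43), IRS1 (−0.31, −0.49) and TRIB1 (−0.25 against 1 mM glc), of CITED2 against acetate (−0.64), and for acetate of IRS2 (−0.23), CITED2 (−0.53) and TRIB1 (−0.37), since it tests the same fold changes against a higher bar. The 1980 genes called for acetate were 1056 with 8 libraries (fewer samples), 3862 with the length and GC trend removed, 3476 with the replicate block added, 3728 without both libraries that stood apart, and 1196 to 2956 leaving out each library. FOXO1 with acetate was called without that pair (−0.33) and ran from −0.34 to −0.13 leaving out each library. FOXO3 at 10 mM glc against 1 mM glc was not called with the replicate block (0.24, adjusted p = 0.0522), with the trend removed (log2 0.058) or with both (log2 0.059), and ran from 0.15 to 0.29 leaving out each library. With acetate it was called with the trend removed (−0.16) and with the block too (−0.16). IRS1 against 1 mM glc was not called with library totals (−0.17) or the replicate block (−0.31, adjusted p = 0.0541), and ran from −0.38 to −0.26 leaving out each library. With acetate it was called with the trend removed (0.13) and without the pair (0.22), and ran from 0.10 to 0.29. TRIB1 against 1 mM glc was not called with library totals (−0.11). Against acetate it was called with library totals (0.22), at a mean of 5 CPM (0.13) and by the DESeq2 Wald test (0.12), and ran from 0.084 to 0.15 leaving out each library. Library totals made 65.2% of acetate calls higher (48.4% under TMM) and 60.8% of those of 10 mM glc against acetate (49.4%), whose median moved to 0.10. FOXO4 and PIK3IP1 gave no value at a mean of 5 CPM. Of 1092 list counts, 983 stayed within 1.5 times and 109 moved. Leaving out any library, the exact test of the IRS2 to IRS1 ratio cannot go below 0.0571; the ratio at 10 mM glc over that at 1 mM glc ran from 0.511 to 0.560. Correlations did not settle whether replicate numbers pair the samples. Of 12 same-numbered pairs 3 correlated over 0.1 (−0.36 to 0.27), and 5 of 12 libraries correlated best with their own number. The values were 0.08, 0.20, 0.27 and 0.06 for 10 mM glc with 1 mM glc. For 10 mM glc with acetate they were −0.09, 0.02, −0.11 and −0.01. For acetate with 1 mM glc they were −0.27, 0.13, −0.36 and −0.004, where replicates 1 and 3 each include a library that stood apart. With the replicate block 9613, 1780 and 8899 genes were called in the 3 comparisons. Depth limits PIK3IP1 most.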
